A study of Mus musculus with 25 samples.

Results

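The 37 genes of the mouse mitochondrial DNA were described in sperm RNA of males fed 5 diets. They were all rows of the deposited table of 47575 genes whose GENCODE symbol starts with mt-, and comprised 13 mRNAs, 2 rRNAs and 22 tRNAs. Libraries came from caudal epididymal sperm of 25 C57/BL6J males, 5 per diet, fed for at least 8 weeks. MD-LPD held 9% casein and 24% sugar with added methyl donors (choline chloride 5, betaine 15 and methionine 7.5 g per kg of diet, folic acid 15 and vitamin B12 1.5 mg per kg), and LPD, the low-protein diet, had the same casein and sugar without them. MD-WD held 19% casein, 34% sugar, 20% milk fat and 0.15% cholesterol with the same methyl donors, WD, the Western diet, was the same without them, and CD, the control diet, held 18% casein and 21% sugar with neither milk fat nor cholesterol. The comparisons asked whether a diet low in protein or rich in fat and sugar altered these RNAs in sperm, and whether methyl donors altered them within each diet. Title and treatment field gave different diets for MD-LPD male 15, LPD male 15 and CD male 15, and the title was followed for these 3 males. The counts recovered for each library, called reads here, summed to 32455480 to 54108158 (median 38676778). Levels are normalised counts, that is, reads after division by a size factor (0.642 to 1.50).

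Mitochondrial DNA is a small circle copied many times in each cell. It is transcribed from both strands as long precursors, and the tRNAs that punctuate the mRNAs and rRNAs are cut out to release them. The mRNAs encode subunits of respiratory complexes I, III and IV and of the ATP synthase, the rRNAs build the mitochondrial ribosome, and the tRNAs serve it. In sperm the mitochondria are wrapped around the midpiece of the tail, and nuclear genes supply all proteins that transcribe and process these RNAs.

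The compact layout of the circle bears on what a count of reads can show, so the stretches where genes meet are given first (GRCm39, 5′ to 3′). mt-Atp8 and mt-Atp6, both of the ATP synthase, share 43 bases at chrM:7927-7969, shown in capitals within chrM:7867-8029 on the plus strand.
mt-Atp8 and mt-Atp6: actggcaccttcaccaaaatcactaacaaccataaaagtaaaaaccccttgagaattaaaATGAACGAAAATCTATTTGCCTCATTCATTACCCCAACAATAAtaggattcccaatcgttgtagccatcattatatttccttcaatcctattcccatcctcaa
mt-Nd5 and mt-Nd6, of complex I, overlap by 14 bases at chrM:13552-13565 but lie on opposite strands, and the stretch chrM:13512-13605 is printed on the strand of mt-Nd5.
mt-Nd5 and mt-Nd6: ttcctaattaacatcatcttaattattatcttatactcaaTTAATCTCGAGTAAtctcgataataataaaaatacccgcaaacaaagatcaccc
mt-Ts1, a serine tRNA, lies opposite the end of mt-Co1, the catalytic subunit of complex IV, with 3 shared bases in capitals (chrM:6870-6872, within chrM:6830-6938 on the strand of mt-Co1).
mt-Co1 and mt-Ts1: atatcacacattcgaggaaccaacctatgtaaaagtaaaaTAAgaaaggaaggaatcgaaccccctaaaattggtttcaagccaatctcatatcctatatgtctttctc

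The kit used keeps the strand, but whether strand was used in counting is not given in the sources used here, so reads of these opposite genes cannot be told apart. The tRNA genes are 59 to 75 bases long, and the sequenced reads are 75 bases long. Reads that span a tRNA and its neighbour cannot be told apart from reads of the free tRNA. Of the tRNAs, 2 of the strand opposite the mRNAs and 2 of the same strand are printed, the 3 of highest mean and the lowest, with the anticodon in capitals. mt-Ts1 lies at chrM:6870-6938 and mt-Te, a glutamate tRNA between mt-Nd6 and mt-Cytb, at chrM:14071-14139, both on the minus strand. mt-Tl1, a leucine tRNA between mt-Rnr2 and mt-Nd1, lies at chrM:2676-2750 and mt-Tf, the phenylalanine tRNA that opens the circle, at chrM:1-68, both on the plus strand.
mt-Ts1: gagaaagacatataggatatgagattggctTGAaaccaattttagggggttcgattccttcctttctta
mt-Te: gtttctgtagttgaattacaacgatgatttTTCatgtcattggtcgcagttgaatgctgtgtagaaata
mt-Tl1: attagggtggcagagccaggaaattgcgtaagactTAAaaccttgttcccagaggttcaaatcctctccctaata
mt-Tf: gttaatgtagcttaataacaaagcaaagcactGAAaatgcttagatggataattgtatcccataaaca

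Per kilobase, averaged over the 25 libraries, the mRNAs were the highest class, with a median of 747828 over the 13 genes. They ran from 205178 normalised counts per kilobase for mt-Nd3, of complex I, to 1994970 for mt-Co1. mt-Co2 and mt-Nd1 followed at 1035680 and 958459. The 2 rRNAs were far below every mRNA, at 6125 for mt-Rnr1 (12S) and 8370 for mt-Rnr2 (16S). The library protocol treats the RNA so that rRNA is not made into library, so the level of the rRNAs in sperm and the efficiency of that step cannot be told apart. The tRNAs spread over the widest range of the 3 classes, with a median of 3767. Those of the strand opposite most mRNAs, called light-strand tRNAs here, had a median of 43844 over 8 genes, and those of the other strand a median of 2425 over 14 genes. mt-Ts1 was highest at 391410 and mt-Te next at 303732, while mt-Tf averaged 33.5, with 0 to 9 reads per library. The 8 light-strand tRNAs took 91.5% ± 1.02 of the tRNA reads (SD, n = 25). The exceptions to the pattern were mt-Tq, a light-strand glutamine tRNA at 1754, and mt-Tl1 at 49534, the highest of the other strand.

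**Figure D1:**
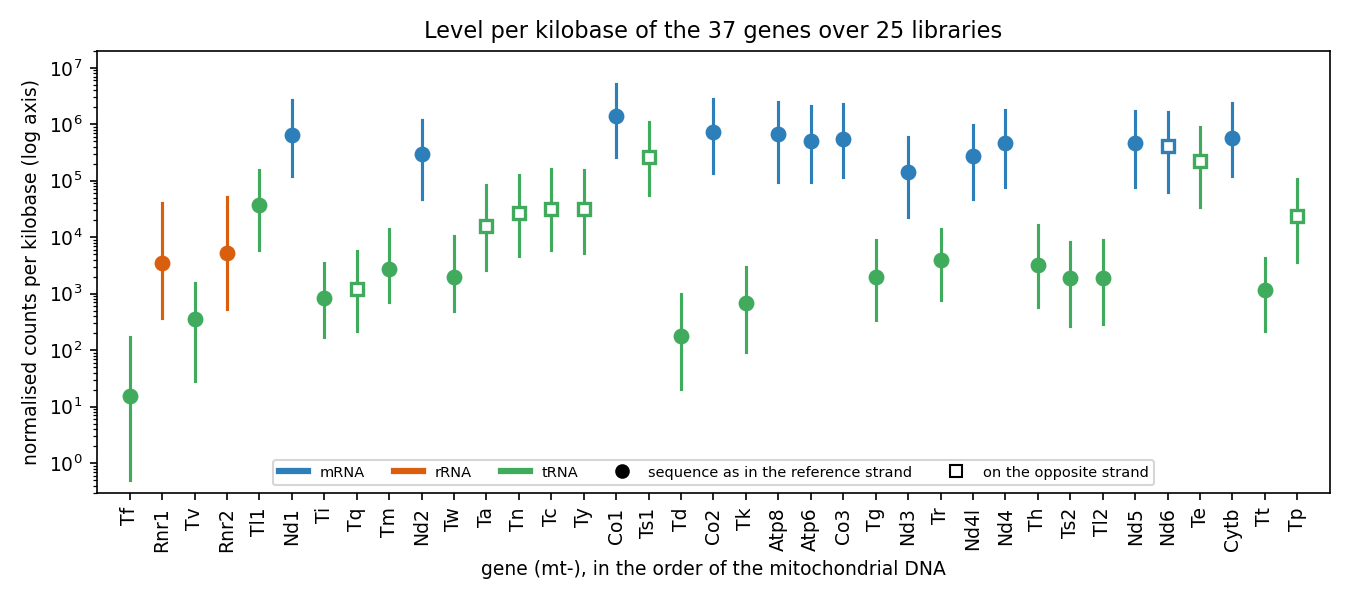
Normalised counts per kilobase (log axis) of the 37 genes in their order along the mitochondrial DNA, with the median of 25 libraries as a symbol and the lowest to the highest library as a line (values under 0.5 drawn at 0.5). The mRNAs, between means of 205178 and 1994970, sit above the rRNAs, and light-strand tRNAs such as mt-Ts1 and mt-Te (open squares) sit near the mRNAs.

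mt-Nd6 is the sole mRNA of the light strand, and its level was close to that of mt-Nd5, its overlapping neighbour on the other strand. The ratio of their levels per kilobase was 0.916 ± 0.0355 (SD, n = 25) and ranged from 0.824 in LPD male 12 to 0.963 in MD-WD male 14. mt-Ts1 likewise followed mt-Co1, with 8.78 ± 0.273 counts of mt-Ts1 per 1000 counts of mt-Co1 over the 25 libraries. mt-Te took 20.5 ± 2.37 counts per 1000 counts of mt-Cytb, the next gene, which lies on the opposite strand. This last ratio was 22.3 to 25.3 in MD-WD and 20.7 to 22.7 in WD libraries, against 17.3 to 19.4 in CD libraries, which lay below both, while MD-LPD (16.7 to 23.5) and LPD libraries (16.8 to 22.7) overlapped CD. The ratio of mt-Nd6 to mt-Nd5 was 0.941 to 0.963 in MD-WD libraries, against 0.877 to 0.915 in CD libraries, and MD-LPD (0.854 to 0.954), LPD (0.824 to 0.960) and WD libraries (0.905 to 0.952) overlapped CD. Separation from CD was also seen for a pair on the same strand. The ratio of mt-Atp8 to mt-Atp6 per kilobase was 1.1756 to 1.3033 in CD libraries. It was lower in all MD-LPD (up to 1.1755), MD-WD (up to 1.1075) and WD libraries (up to 1.1753), while LPD libraries (0.988 to 1.197) overlapped CD. For MD-LPD and WD the gap to CD was far smaller than the SD of the CD libraries (0.0482). Other ratios showed no separation. Those of mt-Ts1 to mt-Co1, mt-Co2 to mt-Co3 and mt-Co1 to mt-Nd1 overlapped CD in every diet. Differences between diets in these ratios, and the part of reads assigned without regard to strand, were not tested.

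Part of the mitochondrial sequence has copies in the nuclear genome. The longest match lies at chr1:24650616-24655269, on the minus strand, and covers 4654 bases corresponding to chrM:6390-11042 at an identity of 99.9%. With chrM positions and the mitochondrial base first, it differs by the substitutions A6393T in mt-Co1 and T9461C in mt-Nd3, and by 1 inserted base in mt-Tr. Of all 75-base windows of the mitochondrial genome, 32.2% were also found in the nuclear genome. The share was 100% for mt-Co2, mt-Atp8, mt-Atp6, mt-Co3 and mt-Nd4l, 61.5% for mt-Nd4, 39.8% for mt-Co1, 1.66% for mt-Nd5, and 0% for mt-Rnr1, mt-Nd1, mt-Nd6 and mt-Cytb.

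Of the nuclear copies that the table lists as genes, those of 5 mitochondrial genes held nearly the same counts per kilobase as their match. Gm28661, a copy of mt-Co2, was at 0.999 ± 0.00139 of the level of mt-Co2 (SD, n = 25), and Gm28437, a copy of mt-Co3, at 0.996 ± 0.00379. Atp6-ps was at 1.06 ± 0.00563 of mt-Atp6, Gm10222 at 1.01 ± 0.000870 of mt-Nd4l, and Gm28438 at 0.997 ± 0.00147 of mt-Nd3. Gm29216 was at 0.468 of mt-Co1 and Gm28439 at 0.575 of mt-Nd4, and Gm13341, Gm13340 and Gm13339 were at 0.0460 of mt-Co2, 0.00639 of mt-Co1 and 0.00475 of mt-Nd2. The 15 copies took 28.2 to 29.7 reads for every 100 reads of the mitochondrial genes. Reads of identical sequence cannot be told apart, so the counts of these copies and of the genes they match are uncertain in their source. Adding the copies to their match moved no log2 difference of a mitochondrial gene by more than 0.0108. The ratio of a copy to its match varied little between libraries, so this sum could hardly move a log2 difference. It therefore does not test what the copies contribute to the differences between diets.

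The 37 genes together took 5.31% of the reads in LPD male 12 and 39.4% in LPD male 13, which bracketed all libraries. They took 20.7% ± 12.2 in MD-LPD, 21.5% ± 13.7 in LPD, 17.5% ± 6.47 in MD-WD, 22.5% ± 8.75 in WD and 18.2% ± 3.90 in CD libraries (SD, n = 5 each). All groups overlapped, and CD libraries lay in the narrowest range (14.7% to 24.8%). The mRNAs made up nearly all of it. The rRNAs took 0.00486% (LPD male 12) to 0.196% (WD male 11) of reads and the tRNAs 0.0343% to 0.285%. With the nuclear copies added, the share of the counts ran from 6.88% to 50.7%. A read counted both at a copy and at its match would enter this sum more than once. Whether reads were counted in this way was not tested. Fewer mitochondria-rich cells and less mitochondrial RNA per cell cannot be told apart in these bulk samples.

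**Figure D2:**
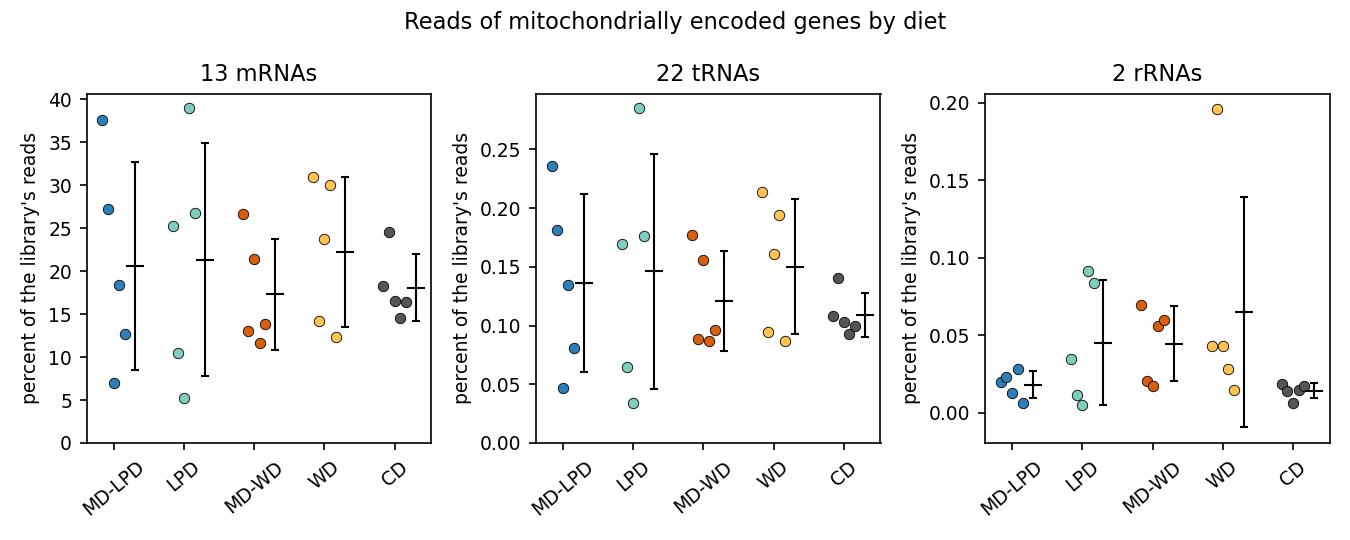
Percent of each library's reads in the 13 mRNAs, the 22 tRNAs and the 2 rRNAs, by diet, with each point a library and the bar the mean and SD of 5. The mRNAs of LPD libraries spread from 5.27% to 39.0%, all groups overlap, and WD male 11 stands apart at 0.196% of reads in rRNAs.

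The mRNAs moved as one across libraries. mt-Co1 varied 19.8-fold between LPD male 12 (410127 normalised counts) and LPD male 13 (8122050), yet its share of the mitochondrial mRNA reads was 30.9% ± 0.539 (SD, n = 25). The coefficient of variation of the normalised counts was 75.1% for mt-Co1, whereas that of its share was 1.75%. For the other mRNAs, that of the share ran from 2.11% (mt-Co2) to 6.47% (mt-Nd3). The tRNAs varied little against the mRNAs as well, with 6.64 ± 0.442 reads per 1000 mRNA reads. The rRNAs did not, with 2.05 ± 2.70 reads per 1000 mRNA reads, from 0.362 in CD male 12 to 13.8 in WD male 11.

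The libraries were checked for the cells they hold. All 20 sperm and late spermatid transcripts listed, among them Prm1, Odf1 and Akap4, had reads in every library. Their summed level was 146634 to 1169990 normalised counts in MD-LPD, 109298 to 1479290 in LPD, 333135 to 1703250 in MD-WD, 257674 to 1604260 in WD and 275762 to 593239 in CD libraries. Transcripts of epididymal epithelium (22 listed, 1 to 8 of them at 0 in a library) summed to 129439 to 620452, and those of leukocytes (16 listed, none at 0) to 28829 to 185498. Both ranges overlapped between all diets.

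Across the 25 libraries mt-Co1 correlated with the summed sperm transcripts (log2 scale, Pearson's r = 0.79, permutation p = 1e-05, the smallest the permutations allow; Spearman's rho = 0.80, p = 1e-05). Both adjusted permutation p-values were 0.00013 over 13 relations computed. Without the 2 libraries farthest from the median, r was 0.75, and within diets, after centring each diet at its mean, it was 0.82. The normalised counts on both axes share the size factor of the library. Fibroblast transcripts gave a lower coefficient with mt-Co1 (r = 0.40, adjusted permutation p = 0.0673; rho = 0.38, adjusted p = 0.0763), and smooth muscle transcripts a negative one (r = -0.57, adjusted permutation p = 0.00743; rho = -0.60, adjusted p = 0.00598). With mt-Rnr2, the summed sperm transcripts gave the highest coefficient of the lists, r = 0.73 (adjusted permutation p = 0.00026), and 0.71 within diets. Fibroblast transcripts gave r = 0.57 with mt-Rnr2 (adjusted permutation p = 0.00743), 0.50 without the 2 farthest libraries and 0.63 within diets. Their rho with mt-Rnr2 was 0.52 (adjusted permutation p = 0.0174). Leukocyte transcripts gave r = 0.43 with mt-Rnr2 (adjusted permutation p = 0.0532; rho = 0.46, adjusted p = 0.0348) and 0.51 within diets. Epididymal epithelium gave r = -0.32 (adjusted permutation p = 0.144) and smooth muscle r = -0.29 (adjusted permutation p = 0.173). LPD males 13 and 15, the highest LPD libraries for both rRNAs, also had the highest fibroblast sums, at 114353 and 247479, against 24012 to 40390 in CD libraries. WD male 11, the highest of all libraries for both rRNAs, had a fibroblast sum of 68198. Other libraries went the other way. MD-LPD male 9 had a sum of 73522 but ranked 11 by mt-Rnr2. MD-WD male 9, which ranked 3 by mt-Rnr2, had a sum of 34048. WD males 12 and 13, above all CD libraries for both rRNAs, had sums of 30144 and 27433, so these 3 sums lay inside the CD range. The 50 nuclear genes for mitochondrial RNA described further on gave r = 0.57 with mt-Co1 (adjusted permutation p = 0.00743; rho = 0.56, adjusted p = 0.0108). With mt-Rnr2, these 50 genes gave r = 0.54 (adjusted permutation p = 0.0108). The part of cell content in the values of the mitochondrial genes was not tested.

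mt-Rnr2 followed mt-Co1 more loosely than the mRNAs followed each other. Pearson's r was 0.74 (permutation p = 5e-05, adjusted p = 0.00026) and Spearman's rho 0.74 (p = 7e-05, adjusted p = 0.000455). Without the 2 libraries farthest from the median of mt-Co1, r was 0.64, and within diets it was 0.77. WD male 11 ranked 1 of 25 by mt-Rnr2 but 12 by mt-Co1. It also had the highest sum of sperm transcripts among WD libraries, at 1604260.

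**Figure D3:**
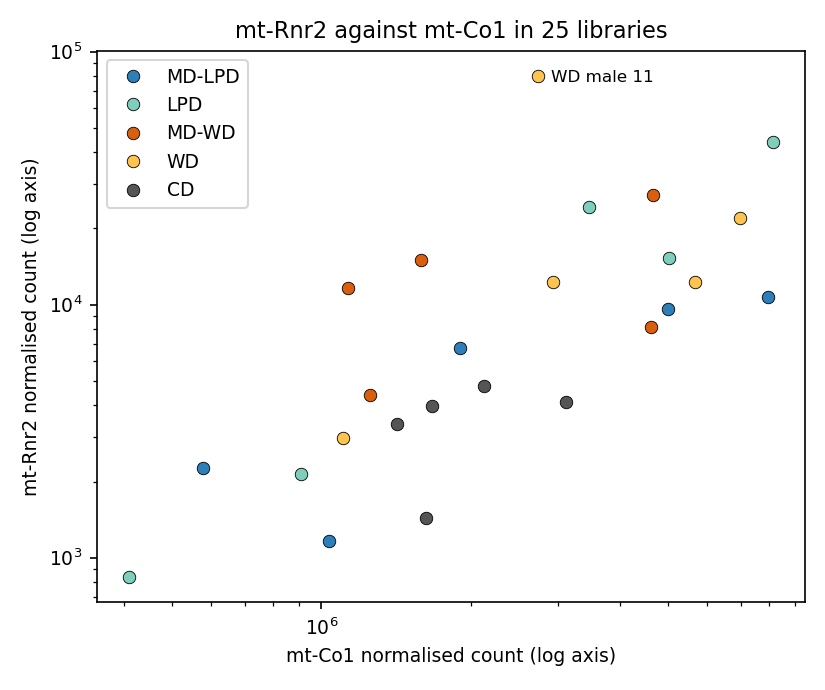
Normalised counts of mt-Rnr2 against those of mt-Co1 in 25 libraries, both axes logarithmic, coloured by diet. Most libraries lie along a rising band, and WD male 11, with 80192 counts of mt-Rnr2, lies above it.

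The rRNAs had the largest differences from CD in WD, MD-WD and LPD sperm, and none passed the threshold of limma. mt-Rnr1, the 12S rRNA of the small ribosomal subunit, had 9055, 37852, 5194, 4913 and 1296 normalised counts in WD males 10 to 14, against 2078, 1632, 486, 1241 and 1727 in CD males 10, 11, 12, 14 and 15. mt-Rnr2, the 16S rRNA of the large subunit, had 21935, 80192, 12339, 12330 and 2975 in the same WD males, against 4763, 4134, 1433, 3377 and 3978 in the CD males. For both genes 4 of the 5 WD libraries were above all CD libraries, and WD male 14 lay inside the CD range.

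The log2 difference between WD and CD sperm was 2.33 for mt-Rnr1 (SE 0.93, adjusted p = 0.250 from limma) and 2.21 for mt-Rnr2 (SE 0.92, adjusted p = 0.263). Without WD male 11 the differences were 1.69 and 1.61. By the Wald test of DESeq2 on recovered reads, both rRNAs passed the threshold, with log2 differences of 3.03 and 2.88 (adjusted p = 0.0465 and 0.0491), beside 0.522% of all genes. Without WD male 11 they did not (1.85 and 1.82, adjusted p = 0.454 and 0.466). Over the 10 libraries left out in turn, DESeq2 kept both calls without WD male 12 or WD male 14 and that of mt-Rnr1 alone without CD male 15 (adjusted p = 0.0447), and its adjusted p for the rRNAs ranged from 0.0146 to 0.466. How many of all genes passed in these fits was not counted.

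In MD-WD sperm, mt-Rnr1 had 13070, 1910, 3783, 5527 and 6766 normalised counts in males 9, 10, 12, 14 and 16, with 4 of the 5 above all CD libraries. The log2 difference from CD was 1.99 for mt-Rnr1 (SE 0.93, adjusted p = 0.481 from limma) and 1.76 for mt-Rnr2 (SE 0.92, adjusted p = 0.488). In LPD sperm, mt-Rnr1 had 6808, 949, 352, 18978 and 10512 in males 10, 11, 12, 13 and 15, both above and below the CD libraries. Its log2 difference from CD was 1.40 (adjusted p = 0.719), and that of mt-Rnr2 1.25 (adjusted p = 0.764). In MD-LPD sperm, mt-Rnr1 had 3376, 4258, 1127, 2895 and 459, and the log2 differences of the rRNAs from CD were 0.52 and 0.45 (both adjusted p = 0.999).

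No mRNA passed the threshold against CD. The fitted differences were positive in all 4 diets. Outside WD, those of some mRNAs turned at equal totals or with a replicate block. mt-Co1 was at -0.044 in MD-LPD, -0.051 in LPD and -0.11 in MD-WD sperm at equal totals. With a replicate block it was at -0.24, -0.23 and -0.26 in the same order. At equal totals mt-Atp6 stayed positive in these diets, and mt-Cytb did so in MD-LPD and LPD sperm, but with the block both turned in each. The median log2 difference from CD over the 13 mRNAs was 0.18 in MD-LPD, 0.17 in LPD, 0.19 in MD-WD and 0.76 in WD sperm, with standard errors of 0.76 to 0.79 for single genes. These sizes depended on the tool. On recovered reads, DESeq2 and edgeR both put mt-Co1 at 0.73 in MD-LPD, 0.85 in LPD, 0.41 in MD-WD and 0.97 in WD sperm against CD, with no call. Over the 36 genes the edgeR medians were 0.88, 1.09, 0.56 and 1.08 in the same order of diets. mt-Co1 had 6995230, 2734710, 2933920, 5674900 and 1104100 normalised counts in WD males 10 to 14, against 2127850, 3109870, 1623730, 1422980 and 1667700 in CD males 10, 11, 12, 14 and 15. The WD values lay on both sides of the CD range. The log2 difference was 0.76 (SE 0.78, adjusted p = 0.594).

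The other complexes gave the same picture in WD sperm. mt-Cytb, the mitochondrially encoded subunit of complex III, averaged 1257360 ± 755392 normalised counts in WD and 598707 ± 180571 in CD sperm (SD, n = 5 each), a log2 difference of 0.86 (SE 0.76, adjusted p = 0.527 from limma). mt-Atp6, a channel subunit of the ATP synthase, averaged 615290 ± 371428 in WD and 309750 ± 108863 in CD sperm, with a log2 difference of 0.80 (SE 0.77, adjusted p = 0.565). mt-Nd6 differed by 0.75 (SE 0.79, adjusted p = 0.601). The 7 complex I mRNAs, 3 of complex IV and 2 of the ATP synthase all had positive differences between 0.67 and 0.88 log2 units. In the other diets, mt-Cytb, mt-Atp6, mt-Co1 and mt-Nd6 differed from CD by 0.14 to 0.35 (adjusted p = 0.847 to 0.999).

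The tRNAs gave larger median differences from CD than the mRNAs, again with no call. The median over the 21 tRNAs tested was 0.53 in MD-LPD, 0.45 in LPD, 0.62 in MD-WD and 0.98 in WD sperm, and mt-Tf was below the filter (a mean of 5). mt-Te averaged 26551 ± 15535 normalised counts in WD and 11128 ± 3435 in CD sperm (SD, n = 5 each), a log2 difference of 1.06 (SE 0.77, adjusted p = 0.452 from limma). mt-Ts1 differed by 0.77 (SE 0.74, adjusted p = 0.568) and mt-Tl1 by 0.96 (SE 0.75, adjusted p = 0.483). In MD-LPD sperm the lowest p among the mitochondrial genes was that of mt-Tm, the methionine tRNA, with 376 ± 361 in MD-LPD and 158 ± 28.2 in CD sperm and a log2 difference of 0.70 (SE 0.69, adjusted p = 0.999). The smallest difference in WD sperm was that of mt-Td, the aspartate tRNA, at 0.0062 (SE 0.91, adjusted p = 0.998), a gene chosen for mention after its value was seen.

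**Figure D4:**
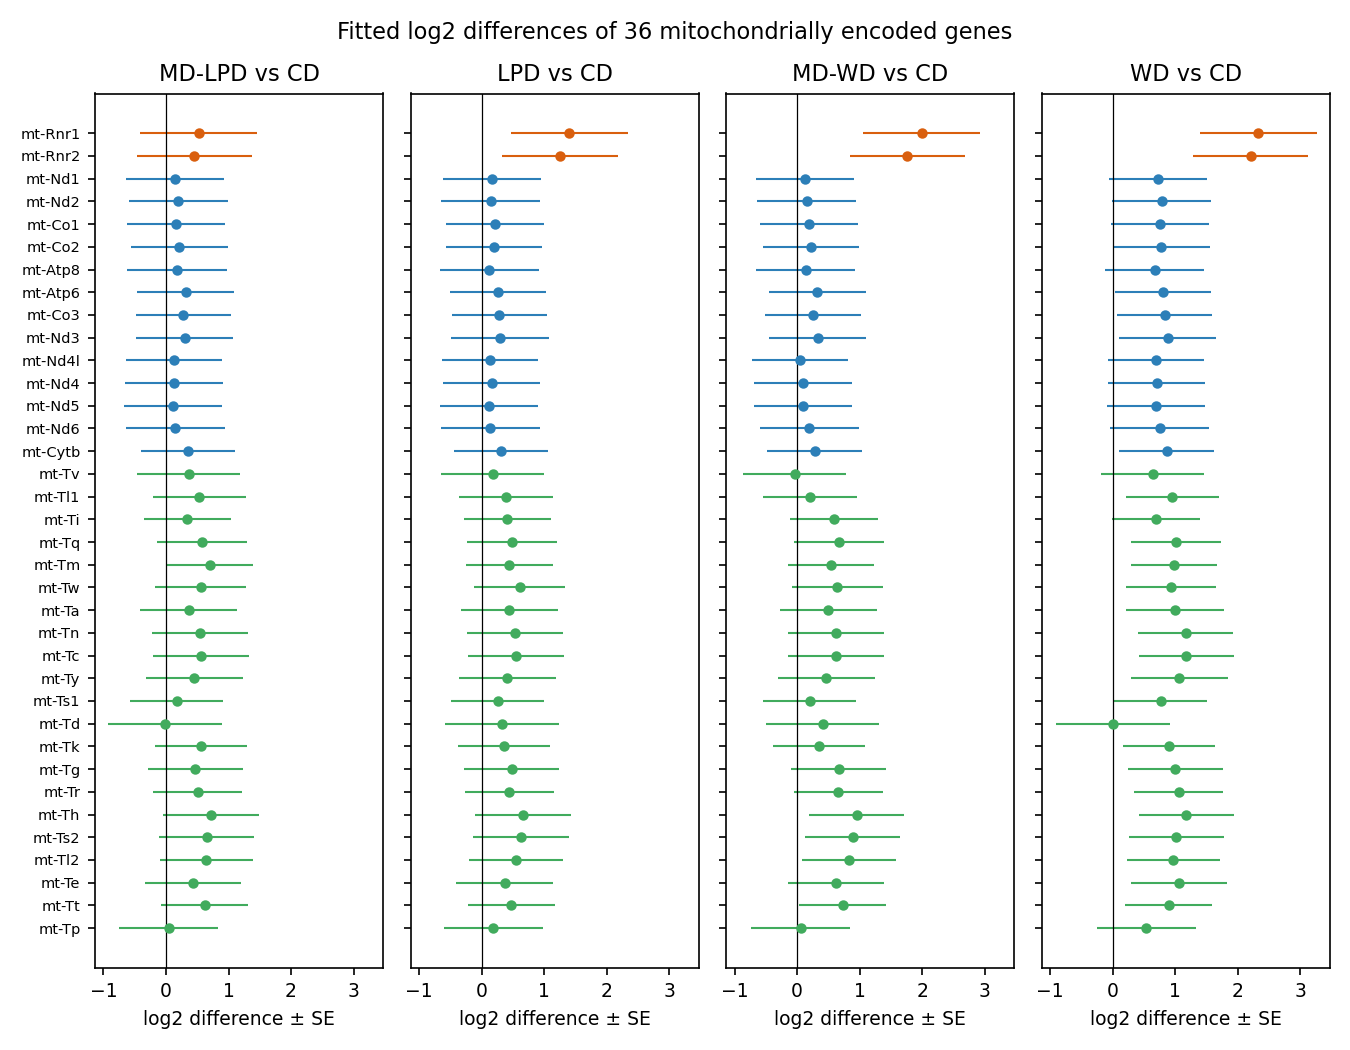
Log2 difference from CD (x axis) with its standard error from limma for the 36 genes tested, in MD-LPD, LPD, MD-WD and WD sperm, with rRNAs at the top, mRNAs below and tRNAs at the bottom. The 2 rRNAs lie farthest to the right in LPD, MD-WD and WD sperm, up to 2.33, and the mRNAs of a panel lie close together.

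Over the 36 genes tested, limma called 0 in every comparison, beside 0% of 28311 genes, and edgeR called 0 as well. With weights per library, limma called 25 of them in WD against CD, together with 12200 genes of all tested. In WD sperm 36 of 36 had a positive difference from CD, beside 51.6% of all genes, and the median was 0.89, against 0.03 over all genes. This median stayed above 0 under each alternative tried, from 0.36 at equal totals to 1.36 with weights per library. In MD-LPD sperm 35 of 36 were positive (48.6% of all genes), with a median of 0.36 that was -0.03 without MD-LPD male 9, -0.04 with a replicate block and -0.30 with weights per library. In LPD sperm 36 of 36 were positive (46.4% of all genes), with a median of 0.36 that was -0.17 without LPD male 13, -0.03 with a replicate block and -0.77 with weights per library. In MD-WD sperm 35 of 36 were positive (57.4% of all genes), with a median of 0.38 that was -0.05 with a replicate block. Equal totals moved the medians of all genes to -0.21 in MD-LPD, -0.28 in LPD, -0.18 in MD-WD and -0.49 in WD sperm, and those of the mitochondrial genes to 0.15, 0.10, 0.10 and 0.36 in the same order. The 4 comparisons share the CD libraries. The mRNAs moved as one across libraries and the tRNAs varied little against them. The 36 genes are therefore not independent of each other, and their signs are not separate observations of a diet.

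At an unadjusted limma p under 0.05, 0 members stood in MD-LPD (3.22% of all genes), 0 in LPD (8.56%), 1 in MD-WD (10.4%, mt-Rnr1) and 2 in WD sperm (16.3%, the rRNAs). DESeq2 called no mitochondrial gene in MD-LPD (0.0358% of all genes), LPD (0.138%) or MD-WD sperm (0.171%). The libraries of a diet lay wholly above those of CD for no mitochondrial gene, beside 0.424% of all genes in MD-LPD, 0.65% in LPD, 1.93% in MD-WD and 1.29% in WD sperm. They lay wholly below for none either, beside 0.6% of all genes in MD-LPD, 1.2% in LPD, 1.89% in MD-WD and 2.56% in WD sperm.

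With methyl donors added to the low-protein diet, the mRNAs differed from those of LPD sperm by at most 0.05 log2 units (SE 0.76 to 0.79). Between MD-LPD and LPD, 21 of 36 genes had a positive difference (51.9% of all genes), and the median was 0.01, but -0.62 without LPD male 12 and 0.53 without LPD male 13. The rRNAs had the lowest p, with log2 differences of -0.88 for mt-Rnr1 (SE 0.93) and -0.80 for mt-Rnr2 (SE 0.92), both adjusted p = 1 from limma. Both turned positive with groups from the treatment field (0.54 and 0.60), without the 3 males whose labels differ (0.029 and 0.096) and with weights per library (0.067 and 0.10). None passed at an unadjusted p under 0.05 (1.59% of all genes) or by DESeq2 (0.0485%), and MD-LPD libraries lay wholly above or below those of LPD for none (0.184% and 0.0636% of all genes).

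With methyl donors added to the Western diet, 35 of 36 genes were lower in MD-WD than in WD sperm (47.2% of all genes were higher), with a median of -0.54. Of these none passed the threshold. This median was below 0 under each alternative tried and lay between -0.92 (WD male 14 left out) and -0.25 (WD male 10 left out) with 1 library fewer, and equal totals gave -0.30 beside 0.20 over all genes. The lowest p was that of mt-Tl1, with 2769 ± 1832 normalised counts in MD-WD and 4672 ± 3297 in WD sperm (SD, n = 5 each) and a log2 difference of -0.75 (SE 0.75, adjusted p = 0.999 from limma). mt-Co1 differed by -0.57 (SE 0.78, adjusted p = 0.999), and 0 members stood at an unadjusted p under 0.05 (5.55% of all genes) or were called by DESeq2 (0.0356%). The MD-WD libraries lay wholly above or below those of WD for none (0.48% and 0.127% of all genes). The difference between the methyl donor effects in the 2 diets, MD-LPD minus LPD less MD-WD minus WD, was 0.54 as a median over the 36 genes, against -2.2e-05 over all genes. It was positive for 33 of 36, beside 50% of all genes. In these counts of signs, too, the 36 genes are not independent of each other. limma and edgeR called 0 (0% of all genes), and 0 stood at an unadjusted limma p under 0.05 (1.07% of all genes).

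Because the total varied so widely between libraries, the proportions among the mRNAs were compared as well, a comparison added after the values had been seen. The 13 mRNA shares and the rRNA and tRNA reads per 1000 mRNA reads gave 90 tests in 6 comparisons, each an exact two-sided permutation test over libraries whose smallest p is 0.00794. Adjusted over 90 tests, 0 passed and the lowest adjusted p was 0.0714. In 10 tests the groups compared did not overlap, which gives the smallest p the test allows. The adjusted p of these tests is set by how many there are, so that 0 passed does not show equal proportions. Unadjusted, 33 were under 0.05, and the shares of one library sum to the same total, so they are not independent of each other. All tests followed the titles and were not repeated with the treatment field for the 3 males whose labels differ.

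mt-Nd5, a large subunit of complex I, took a smaller share of the mRNA reads in each diet than in CD. It took 11.5%, 11.5%, 11.3%, 11.5% and 11.5% in MD-LPD males, 11.6%, 11.7%, 11.02%, 11.7% and 11.5% in LPD males, 11.6%, 11.3%, 11.4%, 11.2% and 11.6% in MD-WD males, 11.5%, 11.5%, 11.7%, 11.8% and 11.4% in WD males, and 12.3%, 12.1%, 12.2%, 12.2% and 11.8% in CD males. The lowest CD library, CD male 15, lay above every library of MD-LPD, LPD and MD-WD, and only WD male 13 exceeded it. CD male 15, LPD male 15 and MD-LPD male 15 are the males whose treatment field names another diet. The difference from CD was -0.64 percentage points in MD-LPD, -0.63 in LPD and -0.68 in MD-WD (exact permutation p = 0.00794, adjusted p = 0.0714 for each), and -0.52 in WD sperm (exact permutation p = 0.0159, adjusted p = 0.0794). With the nuclear copies added to their match, these differences were -0.53, -0.52, -0.58 and -0.43 in the same order. The 4 comparisons rest on the same 5 CD libraries. Sequence shared with the nucleus is scarce in mt-Nd5, but the share is taken over all mRNAs, some of which are wholly shared. The part of the nuclear copies in these differences was not tested.

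mt-Nd4, also of complex I, took 8.64% ± 0.135 of the mRNA reads in MD-WD and 9.15% ± 0.103 in CD sperm (SD, n = 5 each; exact permutation p = 0.00794, adjusted p = 0.0714). In MD-LPD sperm it took 8.77% ± 0.136 (exact permutation p = 0.00794 against CD, adjusted p = 0.0714), in LPD sperm 8.88% ± 0.317 (exact permutation p = 0.111) and in WD sperm 8.78% ± 0.168 (exact permutation p = 0.0159). mt-Nd4l, of the same complex, took 1.03% ± 0.0170 in MD-WD and 1.13% ± 0.0372 in CD sperm (exact permutation p = 0.00794, adjusted p = 0.0714). mt-Atp6 went the other way, with 5.29% ± 0.106 in MD-WD, against 4.94% ± 0.134 in WD and 4.80% ± 0.128 in CD sperm (exact permutation p = 0.00794, adjusted p = 0.0714 for MD-WD against each). In MD-LPD sperm it took 5.21% ± 0.167 (exact permutation p = 0.0159 against CD) and in LPD sperm 5.01% ± 0.171 (exact permutation p = 0.0714). The tRNA reads per 1000 mRNA reads were 7.03 ± 0.318 in MD-WD and 6.77 ± 0.222 in WD, against 6.06 ± 0.258 in CD sperm (exact permutation p = 0.00794, adjusted p = 0.0714 for each). They were 6.66 ± 0.398 in MD-LPD (exact permutation p = 0.0159) and 6.67 ± 0.406 in LPD sperm (exact permutation p = 0.0238), both overlapping CD. The lowest WD library had 6.46 and the highest CD library 6.36.

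**Figure D5:**
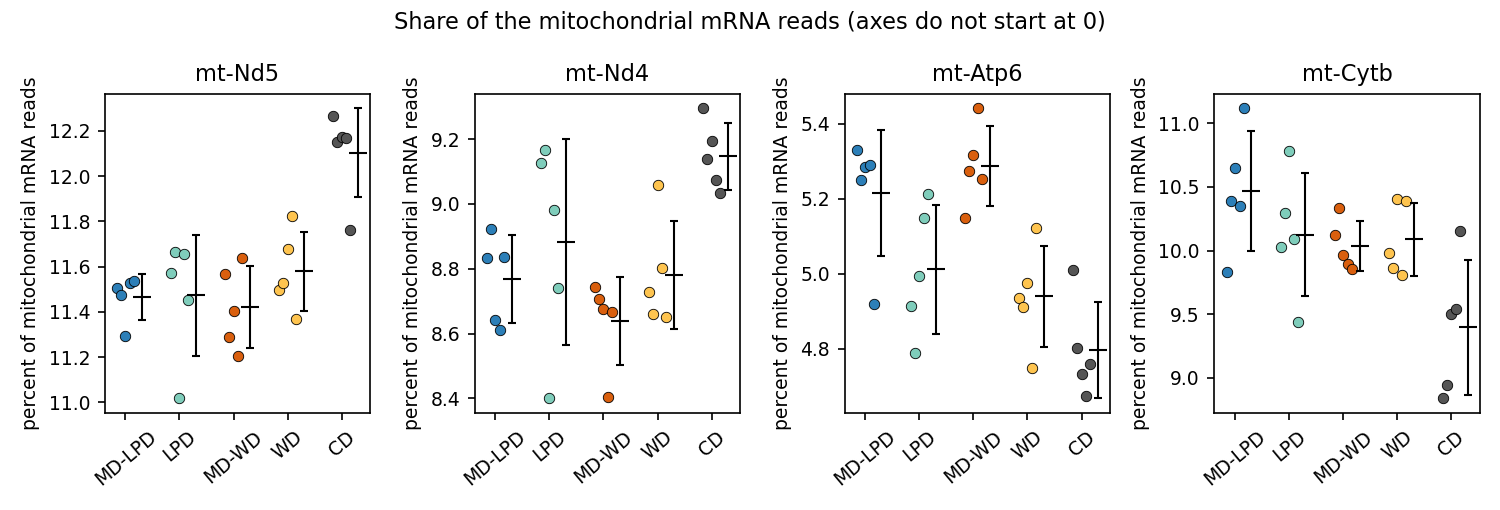
Percent of the mitochondrial mRNA reads taken by mt-Nd5, mt-Nd4, mt-Atp6 and mt-Cytb, by diet, with each point a library and the bar the mean and SD of 5 (axes do not start at 0). The CD libraries lie high for mt-Nd5, at 11.8% to 12.3%, and low for mt-Atp6, at 4.67% to 5.01%.

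Nuclear genes whose products copy, transcribe, cut, modify, stabilise or degrade mitochondrial RNA were counted from a list of 50, all of them tested. limma called 0 in each comparison with CD, and edgeR and DESeq2 called 0 too. Those with a positive difference were 16 of 50 in MD-LPD, 13 in LPD, 18 in MD-WD and 12 in WD sperm, with medians of -0.07, -0.18, -0.09 and -0.19. Over all genes 48.6%, 46.4%, 57.4% and 51.6% had a positive difference. Unadjusted limma p was under 0.05 for 1 of the 50 in MD-LPD (3.22% of all genes), 4 in LPD (8.56%), 8 in MD-WD (10.4%) and 9 in WD sperm (16.3%).

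Pnpt1, a nuclease that degrades mitochondrial RNA, averaged 385 ± 48.5 normalised counts in WD and 563 ± 114 in CD sperm (SD, n = 5 each), a log2 difference of -0.53 (SE 0.16, adjusted p = 0.220 from limma). In LPD sperm it averaged 432 ± 54.3 (log2 difference -0.37, adjusted p = 0.561) and in MD-LPD sperm 446 ± 26.2 (-0.32, adjusted p = 0.999). Polrmt, the mitochondrial RNA polymerase, averaged 252 ± 80.2 in LPD sperm and 349 ± 62.4 in CD sperm (-0.51, adjusted p = 0.561). In MD-WD sperm the lowest p were those of Trmt5, a tRNA methyltransferase, at 138 ± 18.1 in MD-WD and 201 ± 34.8 in CD sperm (-0.53, adjusted p = 0.481), and of Mterf2, of the mitochondrial transcription termination factor family (-0.90, adjusted p = 0.481). Mterf1a and Mterf1b are near-identical copies of another gene of that family, and reads could be split between them. Mterf1a differed from CD by -1.02 in WD sperm (adjusted p = 0.221 from limma). Mterf1b differed from CD by 0.80 in MD-LPD sperm (adjusted p = 0.999 from limma).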

How the data were processed

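RNA of caudal sperm collected by swim up was sequenced as 75-base pairs from a stranded kit with rRNA blocked from conversion. The authors trimmed reads with Trim Galore 0.6.7 (quality 20), aligned them with HISAT2 2.2.1, assembled and counted with StringTie 2.2.1, and deposited gene counts divided by DESeq2 size factors, a signal called the normalised count here. How reads with several matches were counted and the annotation release are not given in the sources used here. The size factors were inferred. Each was taken as the inverse of the library's lowest positive value, which assumes that this value stands for a single read. Multiplying each value by this factor gave whole numbers, taken as reads, for 100% of values (tolerance 0.01). The paper states 6 males per diet and the files hold 5.

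Names came from GENCODE on GRCm39, which named 47034 of 47575 genes. limma 3.58.1 (trend, robust) was fitted to log2(normalised count + 1) of the 28311 genes with a mean of at least 5, with all 25 libraries in 1 model and Benjamini-Hochberg adjustment at 0.05. A log2 difference on this scale understates changes of low genes. edgeR 4.0.16 and DESeq2 1.42.0 were run on recovered reads as alternatives, and nuclear copies were found with blastn 2.17.0. Other alternatives changed the pseudocount, filter, scaling, weights, groups, block and libraries. The fits were tested on simulated data. Genes named with values were the rRNAs, mt-Nd6, mt-Co1, mt-Cytb, mt-Atp6, the 3 tRNAs of highest mean the gene of lowest p in each comparison, the 2 listed nuclear factors of lowest p in each comparison with CD, and nuclear copies of high mean. The members and lists were chosen with earlier results of these data known. The labels do not say more of how the males were housed or paired, so p-values measure the spread between these males.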

Additional observations from a re-analysis of the deposited data

Results flagged for a closer look

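Of 135 groups of 5 values checked for a library far from the others, 9 stood out, and chance gives about 1 in 20. WD male 11 had 0.196% of its reads in rRNAs, against 0.0145% to 0.0427% in the other WD libraries. Its normalised counts were 37852 for mt-Rnr1 (1296 to 9055 in the others) and 80192 for mt-Rnr2 (2975 to 21935), and it had 13.8 rRNA reads per 1000 mRNA reads (0.938 to 1.79). In WD male 14 the ratio of mt-Atp8 to mt-Atp6 per kilobase was 1.03, against 1.14 to 1.18 in the other WD libraries.

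MD-LPD male 10 had 92.1% of its tRNA reads in light-strand tRNAs, against 90.005% to 90.3% in the other MD-LPD libraries, and 3.82 counts of mt-Tl1 per 1000 counts of mt-Nd1, against 4.62 to 4.89. The ratio of mt-Tl1 to mt-Nd1 counts was 4.73 per 1000 in LPD male 13, against 3.79 to 4.04 in the other LPD libraries. In MD-WD male 10 the ratio of mt-Cytb to mt-Nd1 per kilobase was 0.961, against 0.932 to 0.933 in the other MD-WD libraries.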

How the results depend on the processing

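No mitochondrial gene passed in any comparison by limma with equal weights, and 2 (DESeq2) or 25 (weights per library, where 12200 of all genes passed) did in WD against CD. Leaving out 1 library under DESeq2 gave 2 without WD male 12, 2 without WD male 14 and 1 without CD male 15. The share of all genes called in these fits was not counted, so it cannot be set beside these calls. Of 1500 log2 differences of the 10 named genes under an alternative, 152 took another sign than their main value, all of them uncalled and none in WD against CD. edgeR changed the sign in MD-LPD against LPD for mt-Nd6 (-0.13), mt-Cytb (-0.069), mt-Atp6 (-0.042), mt-Te (-0.16), mt-Tl1 (-0.057). DESeq2 did so in MD-LPD against LPD for mt-Nd6 (-0.13), mt-Cytb (-0.069), mt-Atp6 (-0.042), mt-Te (-0.16), mt-Tl1 (-0.057). TMM scaling did so in MD-LPD against LPD for mt-Nd6 (-9.7e-05). Equal totals changed it in MD-LPD against CD for mt-Nd6 (-0.063), mt-Co1 (-0.044), mt-Ts1 (-0.037), and in LPD against CD for mt-Nd6 (-0.12), mt-Co1 (-0.051), mt-Ts1 (-0.0024), and in MD-WD against CD for mt-Nd6 (-0.10), mt-Co1 (-0.11), mt-Cytb (-0.017), mt-Ts1 (-0.094), mt-Tl1 (-0.095), and in MD-LPD against LPD for mt-Co1 (0.0074). Equal totals outside the mitochondrial genes changed it in MD-LPD against CD for mt-Nd6 (-0.0045), and in LPD against CD for mt-Nd6 (-0.044), and in MD-WD against CD for mt-Nd6 (-0.11), mt-Co1 (-0.12), mt-Cytb (-0.028), mt-Ts1 (-0.10), mt-Tl1 (-0.11). Groups from the treatment field changed it in LPD against CD for mt-Nd6 (-0.14), mt-Co1 (-0.050), mt-Atp6 (-0.026), mt-Tl1 (-0.033), and in MD-LPD against LPD for mt-Rnr1 (0.54), mt-Rnr2 (0.60), mt-Co1 (0.52), mt-Ts1 (0.48), and in MD-WD against WD for mt-Rnr1 (0.30), mt-Rnr2 (0.17). Leaving out the 3 males with differing labels changed it in LPD against CD for mt-Nd6 (-0.095), mt-Co1 (-0.0011), and in MD-LPD against LPD for mt-Rnr1 (0.029), mt-Rnr2 (0.096), mt-Co1 (0.38), mt-Ts1 (0.34). Weights per library changed it in MD-LPD against CD for mt-Nd6 (-0.58), mt-Co1 (-0.52), mt-Cytb (-0.35), mt-Atp6 (-0.39), mt-Ts1 (-0.53), mt-Te (-0.31), mt-Tl1 (-0.12), and in LPD against CD for mt-Rnr2 (-0.096), mt-Nd6 (-0.93), mt-Co1 (-0.82), mt-Cytb (-0.74), mt-Atp6 (-0.81), mt-Ts1 (-0.82), mt-Te (-0.82), mt-Tl1 (-0.75), mt-Tm (-0.66), and in MD-LPD against LPD for mt-Rnr1 (0.067), mt-Rnr2 (0.10), mt-Co1 (0.29), mt-Ts1 (0.29).

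With each library left out in turn, log2 differences that changed sign spanned the following ranges. In MD-LPD against CD they ran from -0.34 to 0.63 for mt-Nd6, from -0.31 to 0.64 for mt-Co1, from -0.11 to 0.82 for mt-Cytb, from -0.17 to 0.79 for mt-Atp6, from -0.29 to 0.65 for mt-Ts1, from -0.0096 to 0.91 for mt-Te. In LPD against CD they ran from -0.37 to 0.80 for mt-Nd6, from -0.26 to 0.82 for mt-Co1, from -0.23 to 0.88 for mt-Atp6, from -0.22 to 0.85 for mt-Ts1, from -0.17 to 0.90 for mt-Cytb, from -0.17 to 1.01 for mt-Te, from -0.14 to 1.03 for mt-Tl1, from -0.074 to 0.96 for mt-Tm. In MD-WD against CD they ran from -0.092 to 0.44 for mt-Nd6, from -0.089 to 0.42 for mt-Co1, from -0.0056 to 0.52 for mt-Cytb, from -0.080 to 0.43 for mt-Ts1, from -0.074 to 0.45 for mt-Tl1. In MD-LPD against LPD they ran from -0.66 to 0.52 for mt-Nd6, from -0.55 to 0.52 for mt-Cytb, from -0.57 to 0.54 for mt-Atp6, from -0.58 to 0.60 for mt-Te, from -0.50 to 0.67 for mt-Tl1, from -0.26 to 0.78 for mt-Tm, from -0.65 to 0.43 for mt-Co1, from -0.68 to 0.39 for mt-Ts1. In MD-WD against WD they ran from -0.92 to 0.30 for mt-Rnr1, from -1.03 to 0.16 for mt-Rnr2.

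The male's number was tried as a replicate block, although the labels tie the number to nothing else and the correlations of same-numbered libraries fell within those of other pairs (33 same-numbered pairs, correlation of deviations -0.42 to 0.57, median 0.03; 217 other pairs, -0.62 to 0.69). It called 0 genes in each comparison, and the median over the mitochondrial genes was -0.04 in MD-LPD, -0.03 in LPD, -0.05 in MD-WD and 0.53 in WD against CD. The block changed the sign in MD-LPD against CD for mt-Rnr1 (-0.018), mt-Rnr2 (-0.11), mt-Nd6 (-0.28), mt-Co1 (-0.24), mt-Cytb (-0.047), mt-Atp6 (-0.10), mt-Ts1 (-0.22), and in LPD against CD for mt-Nd6 (-0.32), mt-Co1 (-0.23), mt-Cytb (-0.13), mt-Atp6 (-0.17), mt-Ts1 (-0.18), mt-Te (-0.077), and in MD-WD against CD for mt-Nd6 (-0.28), mt-Co1 (-0.26), mt-Cytb (-0.15), mt-Atp6 (-0.13), mt-Ts1 (-0.24), mt-Tl1 (-0.33).

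With the nuclear copies added, a choice made after seeing the data, the difference in the share of mt-Atp6 was 0.71 points in MD-WD against CD and 0.52 against WD, and that of mt-Nd4 was -0.65 in MD-WD against CD. Adding the copies raises mt-Atp6, whose copy stood at 1.06 of its level, more than mRNAs without such a copy. These differences are therefore on another scale than those of the shares without copies. The cause of the differences between diets was not tested. With 5 libraries a diet, single mRNAs had standard errors of 0.76 to 0.79 on the log2 scale, which limits what can be detected.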
